A study of Rattus norvegicus with 17 samples.

Results

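Gfap, Aqp4, Slc1a2, Slc1a3, Gja1, S100b and Clu are genes by which astrocytes are commonly recognised in brain RNA, and their levels were followed across rats given enzastaurin or vehicle. They were taken by name from a gene list that pairs each symbol with an Ensembl identifier, and all 7 were found among the 26402 genes of the expression table. The identifiers were ENSRNOG00000002919 (Gfap), ENSRNOG00000016043 (Aqp4), ENSRNOG00000005479 (Slc1a2), ENSRNOG00000016163 (Slc1a3), ENSRNOG00000000805 (Gja1), ENSRNOG00000001295 (S100b) and ENSRNOG00000016460 (Clu). The table itself holds identifiers only, so the pairing of symbol and identifier is that of the gene list and was not checked here.

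Astrocytes are glial cells that take up glutamate and potassium released at synapses, move water at the vessel wall and are coupled to each other through gap junctions. In the hippocampus the uptake of glutamate by astrocytes limits how long and how far the transmitter acts. When tissue is injured or inflamed astrocytes become reactive, and a higher level of the filament protein GFAP is the usual sign of that state.

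The tissue sequenced was CA1/CA2 of the left hippocampus, taken from male Fisher-344 rats (spelled Fischer-344 in the study's text) aged 12 months. The ENZ group (7 rats with data here) received enzastaurin, an inhibitor of protein kinase C beta. It was given at 25 mg/kg suspended in polyethylene glycol, injected under the skin once a day for 3 days. The vehicle group (10 rats) received polyethylene glycol alone by the same route and on the same days. All rats were trained in a water maze over those days and were killed after the last trial, so injection and maze training were common to both groups, and no untrained or uninjected rat was analysed here. The tissue was dissected whole, without sorting of cells, and each library came from 1 rat. A lower level of a gene in such bulk tissue can reflect fewer astrocytes or less RNA per astrocyte, which cannot be told apart.

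Depth differed widely between libraries. Recovered reads on genes ran from 2716777 to 20731523 in 9 vehicle rats (median 8710997) and from 3880391 to 11531705 in the 7 ENZ rats (median 5182015). The remaining vehicle rat, G1_80, had 33422 reads. Comparisons were therefore made over 16 rats, without G1_80, and are given again over all 17. The study removed outlier samples before its own comparison, and its text does not name them. Levels are normalized counts, which are reads divided by 1 size factor per rat, and they were not set against each other between genes because they are not corrected for gene length.

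The question asked of these genes was whether their RNA differed between ENZ and vehicle rats. None of the 7 did so beyond the spread between rats. The limma fit called 0 of the 13853 genes tested at an adjusted p under 0.05 (0%), and 324 had an unadjusted p under 0.05 (2.34%), of which 172 were lower in ENZ rats. DESeq2 and edgeR, run on the recovered reads of the same 16 rats, also called 0 genes after adjustment. At an unadjusted p under 0.05 they had 309 of 20796 genes and 315 of 13413 genes. Of the 7 astrocyte genes 0 reached an unadjusted p of 0.05 in any of the 3 tools. Their log2 fold changes, ENZ against vehicle, ran from -0.16 to 0.045 with a median of 0.0031, beside a median of -0.0043 over all genes tested. The median of the 7 was -0.055 without vehicle rat G1_44, beside 0.00019 over all genes tested. Over 13 rats, which leave out vehicle rats G1_80, G1_134, G1_44 and G1_8, it was -0.085, beside -9.4e-05 over all genes tested. In both, 6 of the 7 lay below 0 and 0 of the 7 reached an unadjusted p of 0.05. Both leave out G1_44, the vehicle rat with the lowest level of 5 of the 7 genes, which by itself lowers the fold changes of those 5. Several of the genes also moved together across rats, so the 6 are not separate observations.

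**Figure D1:**
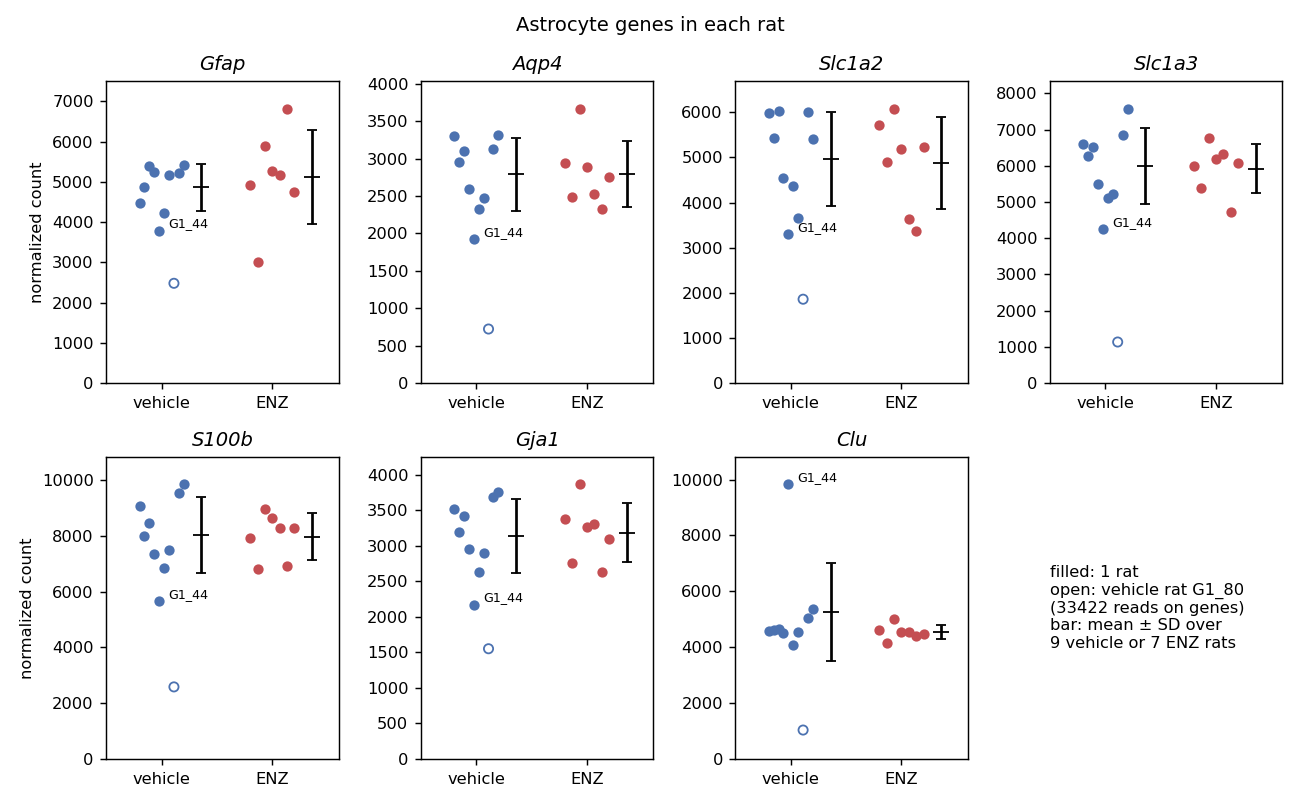
Normalized counts of the 7 astrocyte genes (vertical axes, from 0) in each vehicle and ENZ rat. Filled points are the 16 rats compared, the open point is vehicle rat G1_80 with 33422 reads, and bars show the mean ± SD over 9 vehicle or 7 ENZ rats. The groups overlap in every panel, and vehicle rat G1_44 is low in the first 6 panels and stands far above all other rats for Clu at 9835.

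Gfap encodes the intermediate filament protein of astrocytes. In the 9 vehicle rats it ran from 3777 normalized counts in rat G1_44 through a median of 5172 to 5426 in rat G1_98. In the 7 ENZ rats it ran from 2999 in rat G2_125 through a median of 5179 to 6820 in rat G2_62. The ENZ rats thus held both the lowest and the highest level, the vehicle range lay inside the ENZ range, and the medians were nearly equal. The means were 4868 ± 583 (SD, n = 9) in vehicle rats and 5119 ± 1168 (SD, n = 7) in ENZ rats. The log2 fold change was 0.045 (SE 0.13, 95% interval -0.22 to 0.31), with a limma adjusted p of 1.00 and a two-sided exact permutation p of 0.764. Single rats of either group moved it. It was 0.17 without the low ENZ rat G2_125, -0.030 without the high ENZ rat G2_62 and 0.00074 without the low vehicle rat G1_44.

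Aqp4 encodes the water channel that astrocytes carry on the endfeet around blood vessels. Its levels ran from 1922 (rat G1_44) through 2947 to 3309 (rat G1_98) in vehicle rats, and from 2319 (rat G2_62) through 2749 to 3667 (rat G2_152) in ENZ rats. The ranges overlapped over most of their length, with the lowest level in a vehicle rat and the highest in an ENZ rat. The group means, 2788 ± 483 (SD, n = 9) and 2793 ± 445 (SD, n = 7), differed by a log2 fold change of 0.0094 (SE 0.11, 95% interval -0.23 to 0.24). The exact permutation p was 0.941.

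Slc1a2 and Slc1a3 encode the astrocytic glutamate transporters, known in rodents as GLT-1 and GLAST. Slc1a2 ran from 3298 (rat G1_44) through a median of 5419 to 6034 (rat G1_143) in vehicle rats and from 3380 (rat G2_62) through 5188 to 6084 (rat G2_152) in ENZ rats. Each group held rats at both ends of the range, with G1_44 and G1_8 low among vehicle rats and G2_62 and G2_26 low among ENZ rats. The log2 fold change of Slc1a2 was -0.027 (SE 0.15, 95% interval -0.33 to 0.28), and the exact permutation p was 0.869. Slc1a3 ran from 4248 (rat G1_44) through 6276 to 7580 (rat G1_98) in vehicle rats and from 4716 (rat G2_62) through 6083 to 6761 (rat G2_152) in ENZ rats. All ENZ levels of Slc1a3 lay within the vehicle range. Its log2 fold change was -0.0044 (SE 0.11, 95% interval -0.23 to 0.22), and the exact permutation p was 0.970.

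Gja1 encodes connexin 43, the main gap junction protein of astrocytes. It ran from 2170 (rat G1_44) through a median of 3194 to 3755 (rat G1_98) in vehicle rats and from 2625 (rat G2_62) through 3264 to 3866 (rat G2_152) in ENZ rats. The groups overlapped, and the same rats that were at the ends for Aqp4 were at the ends here. The log2 fold change was 0.032 (SE 0.11, 95% interval -0.19 to 0.25), and the exact permutation p was 0.793.

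S100b encodes a calcium-binding protein that astrocytes hold in the cytoplasm and also release. It ran from 5649 (rat G1_44) through a median of 7989 to 9857 (rat G1_98) in vehicle rats and from 6812 (rat G2_125) through 8277 to 8977 (rat G2_152) in ENZ rats. The ENZ levels lay inside the vehicle range. The log2 fold change was 0.0031 (SE 0.10, 95% interval -0.21 to 0.22), and the exact permutation p was 0.979.

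Clu encodes clusterin, a secreted chaperone and lipid-binding protein that astrocytes produce along with other brain cells. In ENZ rats it was the steadiest of the 7 genes, from 4153 (rat G2_125) through a median of 4538 to 4993 (rat G2_152), a coefficient of variation of 5.59%. In vehicle rats it ran from 4068 (rat G1_53) through 4602 to 9835 in rat G1_44, where the next highest vehicle rat, G1_98, was at 5363. All ENZ levels lay within the vehicle range, and 1 vehicle rat set the upper end of it. The log2 fold change was -0.16 (SE 0.13, 95% interval -0.44 to 0.11), and the exact permutation p was 0.324. Without rat G1_44 it was -0.042 (SE 0.059), with vehicle rats at 4674 ± 388 (SD, n = 8), ENZ rats at 4533 ± 253 (SD, n = 7) and an exact permutation p of 0.435. Most of the largest of the 7 differences was thus lost when 1 vehicle rat was left out.

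The intervals give the precision of these comparisons. On the linear scale the 95% intervals of the fold change reached from 0.863 to 1.16 for S100b, which had the smallest standard error, and from 0.795 to 1.21 for Slc1a2, which had the largest. For Gfap the interval was 0.859 to 1.24, and for Clu 0.740 to 1.08. Fold changes within these intervals are compatible with the data, and an adjusted p that misses the threshold does not show equal levels. The adjusted p from limma was 1.00 after rounding for each of the 7 genes.

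Over all 17 rats the limma fold changes of the 7 genes were higher, and so was the median over all genes tested. All 7 lay above 0, from 0.068 for Clu to 0.23 for Slc1a3 with a median of 0.14, while the median over the 13844 genes tested was 0.16. Relative to that median the 7 genes lay between -0.092 (Clu) and 0.074 (Slc1a3). The count tools gave no such shift, with medians over all genes of -0.024 in DESeq2 and 0.0013 in edgeR, and in both 6 of the 7 genes lay above 0 and Clu below (-0.12 and -0.14). Limma called 0 genes over 17 rats (0%), with 38 at an unadjusted p under 0.05 (0.274%). DESeq2 called 5 of 20910 genes with 95 unadjusted, and edgeR called 0 of 13404 genes with 244 unadjusted. None of the 7 astrocyte genes was among these calls, their limma adjusted p-values ran from 0.786 to 0.907, and their exact permutation p-values from 0.446 for Gfap to 0.924 for Clu.

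Rat G1_80 itself could be read only coarsely. In its library 1 read is worth 103 normalized counts, and the 7 genes were covered by 7 reads (Aqp4) to 25 reads (S100b), against 1507 to 29221 reads per gene in the other 16 rats. Its normalized count was below every other rat for each of the 7 genes, for example 1137 for Slc1a3 and 1034 for Clu. Its size factor leaves a smaller total than in other rats, so CPM, reads scaled to 1 fixed total per library, were also taken. Slc1a3 stood at 329 CPM (exact Poisson 95% interval 164 to 589) and Clu at 299 CPM (143.5 to 550), below the other rats, which ranged from 823 to 1404 and from 778 to 1905. For the other 5 genes the interval reached into the range of the other rats, as for Gfap at 718 CPM (460 to 1068) against 562 to 1325. These intervals cover counting error only.

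The spread between rats differed from gene to gene. Over the 16 rats the coefficient of variation was 14.0% for S100b, 14.6% for Slc1a3, 14.7% for Gja1, 16.2% for Aqp4, 17.3% for Gfap, 20.2% for Slc1a2 and 27.2% for Clu. Within groups Gfap varied by 12.0% among vehicle and 22.8% among ENZ rats, whereas Slc1a3 (17.4% and 11.3%) and S100b (16.9% and 10.4%) had the larger value among vehicle rats. The ENZ value for Gfap includes the low rat G2_125 at 2999 and the high rat G2_62 at 6820. It depends on such single rats and was not taken again without them. Whether the groups differ in spread was not tested. At the depth of these libraries counting error was at most 2.58% of the level. The median coefficient of variation was 13.8% over all 13853 genes tested and 10.6% over the 326 genes with a mean of at least 2000, the range in which the 7 genes lie. All 7 lay above the median of the abundant genes, and of those 326 genes 27.9% varied more than S100b and 2.45% more than Clu. For Clu this rested on rat G1_44. Over the 15 rats without it the coefficient of variation of Clu was 7.13%, below a median of 10.2% over the abundant genes, while the other 6 genes ran from 11.8% (S100b) to 18.4% (Slc1a2) and stayed above it.

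The same rats were high or low for most of these genes. Vehicle rat G1_44 had the lowest level of 5 of them (Aqp4, Slc1a2, Slc1a3, S100b and Gja1), the lowest but 1 of Gfap and the highest of Clu. Averaged over Aqp4, Slc1a3, S100b and Gja1, it stood 0.50 below the mean of the 16 rats on the log2 scale (a deviation of -0.50), followed by ENZ rat G2_62 at -0.26 and vehicle rat G1_53 at -0.23. At the other end were vehicle rat G1_98 at 0.30, ENZ rat G2_152 at 0.27 and vehicle rat G1_89 at 0.23. Both groups therefore had rats at each end. Gfap departed from this order in the ENZ group, where G2_62 was highest for Gfap (0.48) although low for the transporters. Rat G2_125 was low for both, but further for Gfap (-0.71) than for the average of Aqp4, Slc1a3, S100b and Gja1 (-0.17). Its Slc1a2 was near the mean (0.019).

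**Figure D2:**
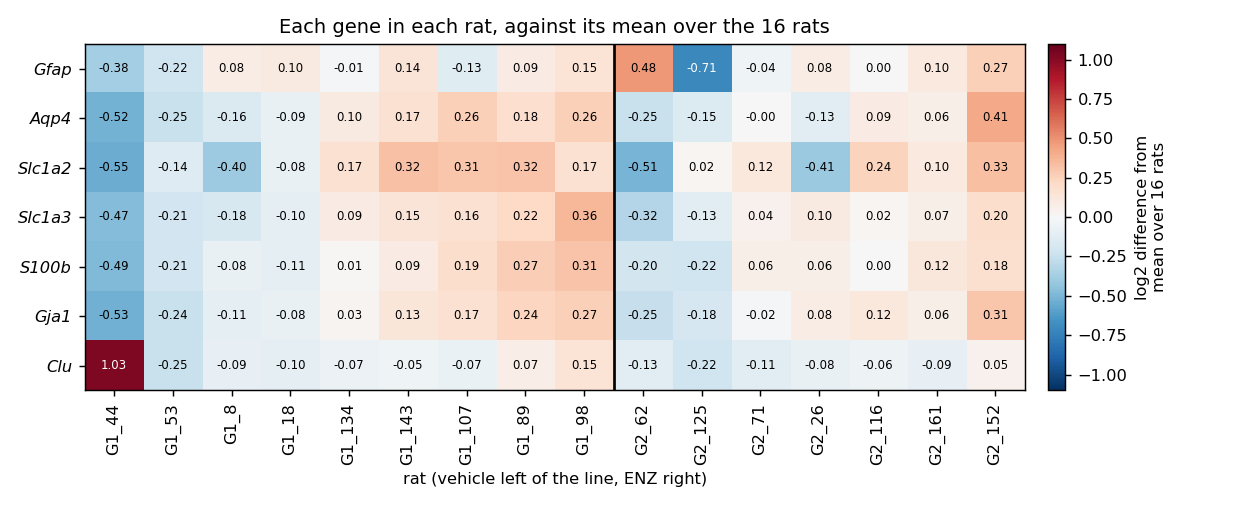
Difference of each gene (rows) in each of 16 rats (columns) from its mean over the 16 rats, as log2(normalized count + 1), with red above and blue below the mean. Within vehicle (left of the line) and ENZ (right) rats are ordered by their mean over Aqp4, Slc1a3, S100b and Gja1. Those 4 rows are alike in most columns, with Aqp4 below the mean and the other 3 above it in G2_26, while G1_44 is low in 6 rows and at 1.03 for Clu.

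Rat G1_44 stood apart beyond these genes by the size of its excess. It had the highest level of 13.3% of the 13853 genes tested, a share within the 0.960% to 13.9% of the other 15 rats. For Clu it exceeded the next rat 1.83-fold. It exceeded the next rat by at least as much in 272 genes, whereas each of the other 15 rats did so in 0 to 15 genes. Among the 326 abundant genes this held for 4, Clu included, in G1_44 and for 0 in every other rat. Its library was not shallow, with 11161885 reads, of which 21261 were on Clu. Of the blood markers Hba2, Hbb and Alas2, 1 could be matched to the table, Hba2 (ENSRNOG00000047321, paired in the study's text), and it was at 800 normalized counts in G1_44 against 191 to 434 in the other 15 rats. The part of that in the Clu level was not tested.

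Co-variation was measured as the correlation of log2 values across rats for each of the 21 pairs of the 7 genes, with permutation p-values adjusted over the 21 pairs. Over the 16 rats 10 pairs had a Pearson r of at least 0.5, and the median over all pairs was 0.46. Both rose when 1 rat was left out, to 15 pairs and 0.79 without G1_44 and to 14 pairs and 0.69 without G2_62. As background, the median r of each gene with the 13846 tested genes outside the set lay between -0.037 and 0.029 over the 16 rats. Of those genes 5.81% to 9.06% had an r of at least 0.5. This background takes in genes of every level tested and was not matched to the level of the 7 genes. Without G1_44 the background was also higher, with medians of -0.0081 to 0.021 and shares of 8.38% to 10.8%. The pairs fell into those among Aqp4, Slc1a3, S100b and Gja1, those of Slc1a2 with these, those of Gfap and those of Clu, a grouping made after the r values were seen.

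Aqp4, Slc1a3, S100b and Gja1 moved almost in parallel. Their 6 pairs had Pearson r from 0.91 (Aqp4 with S100b) to 0.96 (S100b with Gja1) and Spearman rho from 0.88 to 0.96. Each had a permutation p of 1e-05, the smallest that 100000 resamples can give, and an adjusted p of 3.5e-05 for r and 3e-05 for rho. Leaving out the 2 rats farthest from the median of the first gene of a pair left r at 0.88 to 0.95. The relation was present in each group, with r from 0.97 to 0.99 within the 9 vehicle rats and from 0.77 to 0.93 within the 7 ENZ rats. Within vehicle rats without G1_44, lowest for each of these genes, it was 0.93 to 0.98. With values centred on their group means r was 0.91 to 0.97, and over all 17 rats 0.92 to 0.99, with the shallow rat G1_80 lowest for each gene.

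Slc1a2 followed these 4 genes less tightly. Its Pearson r was 0.88 with Aqp4, 0.79 with Slc1a3, 0.78 with Gja1 and 0.73 with S100b, with adjusted permutation p-values from 6e-05 to 0.00254. Spearman rho ran from 0.71 (adjusted permutation p = 0.00653) to 0.91 (adjusted permutation p = 3e-05). The pair of Slc1a2 with Aqp4 was not the looser one by rank, with rho 0.91 against 0.88 for Aqp4 with S100b. Nor was it so within ENZ rats, with r 0.82 against 0.77. Without the 2 farthest rats r was 0.56 to 0.85, within vehicle rats 0.86 to 0.93 and within ENZ rats 0.51 to 0.82. Within vehicle rats without G1_44 it was 0.75 to 0.87. The glutamate transporters were thus related to each other (r = 0.79), but Slc1a3 was closer to S100b and to Gja1 (both r = 0.96) than to Slc1a2. Whether those r values differ was not tested.

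Gfap was less closely related to these 5 genes over the 16 rats. Its Pearson r was 0.46 with S100b, 0.44 with Gja1, 0.38 with Aqp4, 0.31 with Slc1a3 and 0.046 with Slc1a2, and 0 of these 5 pairs passed adjustment (adjusted permutation p from 0.136 to 0.868, unadjusted from 0.0711 to 0.868). Spearman rho ran from 0.24 to 0.49 (adjusted permutation p from 0.0762 to 0.367). Single rats moved these values in both directions. Without rats G1_44 and G2_125, the farthest from the Gfap median, r was between -0.27 and 0.040. Without ENZ rat G2_62, highest for Gfap and low for the others, r was higher, at 0.69 with Gja1, 0.68 with S100b, 0.61 with Slc1a3, 0.60 with Aqp4 and 0.32 with Slc1a2. Within the 9 vehicle rats r was 0.54 to 0.77 but 0.13 to 0.49 without G1_44, and within the 7 ENZ rats -0.27 to 0.36. Whether the groups differ in this was not tested. Over all 17 rats r was 0.52 to 0.76, with the shallow rat G1_80 lowest for all of these genes.

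The correlations of Clu changed sign with rat G1_44. Over the 16 rats all 6 had a negative Pearson r, from -0.37 with Gja1 to -0.19 with Gfap, and 0 passed adjustment (adjusted permutation p from 0.213 to 0.380, unadjusted from 0.133 to 0.361). Spearman rho, which takes ranks only, was positive for all 6, from 0.24 with Gfap to 0.59 with Gja1, and 3 passed adjustment, those with Gja1 (adjusted permutation p = 0.0369), Aqp4 and Slc1a3 (both adjusted permutation p = 0.0496). In the 15 rats without G1_44 Pearson r was 0.87 with S100b and with Gja1, 0.81 with Slc1a3, 0.79 with Aqp4, 0.51 with Gfap and 0.47 with Slc1a2. Of these, 4 passed adjustment, with adjusted permutation p-values from 4.2e-05 for S100b to 0.000573 for Aqp4, and Gfap (0.0806) and Slc1a2 (0.10) did not. Within the 7 ENZ rats, where G1_44 has no part, r was 0.43 to 0.89, and within the 8 other vehicle rats 0.50 to 0.90. In the other 15 rats Clu therefore moved with Aqp4, Slc1a3, S100b and Gja1, over a narrower range.

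**Figure D3:**
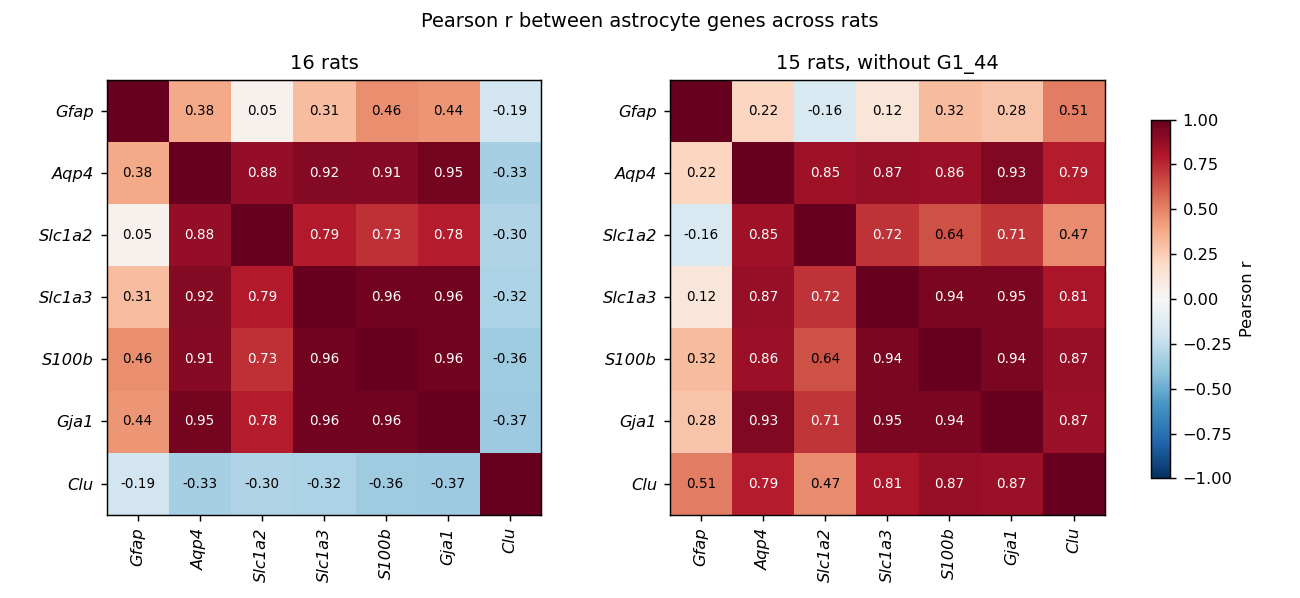
Pearson r of log2(normalized count + 1) for each pair of astrocyte genes across 16 rats (left) and across 15 rats without vehicle rat G1_44 (right). Colour runs from -1 (blue) to 1 (red). The block of Aqp4, Slc1a3, S100b and Gja1 stays at 0.86 or more in both panels, while the Clu row turns from -0.37 to -0.19 on the left to 0.47 to 0.87 on the right.

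Measures of the libraries were set beside these relations, as 21 further relations with p-values adjusted over them. Depth, as log10 reads on genes, had Pearson r from -0.35 (Aqp4) to 0.19 (Clu) with the 7 genes and Spearman rho from -0.29 to -0.029, and 0 of the 7 passed adjustment (adjusted permutation p from 0.415 to 0.608, unadjusted from 0.182 to 0.578). The part of each library taken by the most abundant gene of the table, 3.04% of reads in rat G1_44 to 5.42% in rat G2_152, did move with them. Its Pearson r was 0.92 with Aqp4, 0.89 with Gja1, 0.88 with Slc1a3, 0.86 with S100b and 0.77 with Slc1a2 (adjusted permutation p from 0.000105 to 0.00143), and Spearman rho was 0.82 to 0.93 (adjusted permutation p from 0.000105 to 0.00118). Without the 2 rats farthest from its median r was 0.71 to 0.91 for these 5 genes. With Gfap r was 0.33 (adjusted permutation p = 0.415), and with Clu it was -0.16 (adjusted permutation p = 0.608) and 0.76 without G1_44. The part of that gene's share in the co-variation was not tested. Hba2 was related to Clu with r = 0.72 (permutation p = 0.0190, adjusted 0.0664) and rho = 0.33 (adjusted permutation p = 0.559). The r was 0.15 without rat G1_44 and 0.14 without G1_44 and G1_8, so that relation rested on G1_44. For the other 6 genes r with Hba2 lay between -0.39 and -0.11 over the 16 rats and between 0.079 and 0.38 without G1_44.

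The genes most like the set were found by their mean Pearson r with the 7 genes over the 16 rats. ENSRNOG00000037871 had the highest mean r, 0.68, with 0.94 for S100b and for Gja1 and -0.24 for Clu. ENSRNOG00000007290 came next at 0.67, with 0.98 for S100b and for Slc1a3. These were nearer to the 4 parallel genes than to Gfap (0.54 and 0.40). At the other end ENSRNOG00000012597 had a mean r of -0.61 and ENSRNOG00000016509 of -0.60, with -0.89 and -0.78 for Gja1. All were chosen for these values, which are given as a description, and their symbols were not used here. The mean takes in r with Clu, whose level in rat G1_44 was far above the others, and the choice was not made again without that rat.

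The promoters of Aqp4, Slc1a3, S100b and Gja1 are shown because these genes moved in parallel. RefSeq promoters on assembly GRCr8, from 250 bases before to 50 after the gene start, were matched by symbol for 6 of the 7 genes, all but Clu. Motifs searched on both strands were TATAAA (held by 14.2% of the 33469 promoters of 300 bases), TGANTCA (7.33%), TTCNNNGAA (8.87%) and TTGGC with its reverse complement GCCAA (45.8%). Capitals mark matches, and where a gene has several entries the first is shown.
Aqp4 (chr18:6798793-6799092, minus strand): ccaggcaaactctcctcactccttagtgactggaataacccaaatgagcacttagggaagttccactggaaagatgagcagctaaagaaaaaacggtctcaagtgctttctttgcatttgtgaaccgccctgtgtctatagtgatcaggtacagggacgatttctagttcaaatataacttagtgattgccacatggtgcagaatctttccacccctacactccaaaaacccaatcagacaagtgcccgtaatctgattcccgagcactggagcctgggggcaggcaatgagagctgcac
Slc1a3 (chr2:59557759-59558058, minus strand): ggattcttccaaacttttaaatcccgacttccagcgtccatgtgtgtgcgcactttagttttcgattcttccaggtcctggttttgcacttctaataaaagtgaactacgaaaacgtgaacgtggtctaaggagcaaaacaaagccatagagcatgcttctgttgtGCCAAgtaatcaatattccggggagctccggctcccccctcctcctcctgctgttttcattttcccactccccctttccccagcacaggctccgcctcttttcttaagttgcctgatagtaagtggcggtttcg
S100b (chr20:12381032-12381331, minus strand): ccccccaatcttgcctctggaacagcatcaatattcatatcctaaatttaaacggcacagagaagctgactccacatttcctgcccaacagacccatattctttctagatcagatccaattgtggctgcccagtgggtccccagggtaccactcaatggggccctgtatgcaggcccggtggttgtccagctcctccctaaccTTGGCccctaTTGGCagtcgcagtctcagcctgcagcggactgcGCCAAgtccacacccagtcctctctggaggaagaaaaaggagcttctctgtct
Gja1 (chr20:36302314-36302613, plus strand): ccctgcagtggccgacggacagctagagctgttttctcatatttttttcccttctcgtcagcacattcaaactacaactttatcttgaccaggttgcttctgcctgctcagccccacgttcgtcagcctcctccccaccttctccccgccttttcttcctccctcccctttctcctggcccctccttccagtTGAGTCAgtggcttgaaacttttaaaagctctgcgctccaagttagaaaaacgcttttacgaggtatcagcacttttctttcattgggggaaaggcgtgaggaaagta
The 4 windows shared none of these motifs. S100b held TTGGC or GCCAA at bases 204, 214 and 248 of its window, Slc1a3 held GCCAA at base 167, Gja1 held TGAGTCA at base 193 as its match to TGANTCA, and Aqp4 held none of the 4. TATAAA and TTCNNNGAA were in none of the windows, and the Gfap window held no match either. Of the 2 Slc1a2 entries the first held no match and the other held 1 match to TTGGC or GCCAA. A match describes letters in the window and no more, and a missing match says only that these letters are not in it.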

How the data were processed

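Each library came from 1 rat, and its treatment was taken from the sample labels. The authors aligned reads to rn5 with STAR 2.4.0a, counted them per gene with featureCounts 1.4.4 and deposited normalized counts, a signal of reads divided by 1 DESeq2 size factor per rat. The value of 1 read was recovered from the low values, and 100% of values in each rat were then whole within 0.1 reads.

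Groups were compared with limma 3.58.1 (R 4.3.3), using a mean-variance trend and no covariates. Values were log2(normalized count + 1), and genes were kept at a median of at least 5, which all 7 astrocyte genes passed. Benjamini-Hochberg adjustment covered all genes tested. The fit was tested on simulated data, with genes drawn independently and changes larger than any seen for the 7 genes. That test does not cover differences as small as theirs or genes that move together. Exact permutation tests (two-sided) and correlations (100000 resamples) used numpy 2.4.6 and scipy 1.17.1 under Python 3.11.15.

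Alternatives were all 17 rats, 13 rats (without G1_80, G1_134, G1_44 and G1_8), without G1_44, leaving out each rat, pseudocounts of 0.1 and 5, no filter or a median of at least 50, TMM, recomputed median-of-ratios and quantile scaling, array weights, DESeq2 1.42.0, edgeR 4.0.16, Spearman rho and group-centred values. DESeq2 and edgeR over 17 rats, the medians for Gfap and Clu, Gfap pairs without G2_62 and variation without G1_44 were added after seeing the data. The 7 genes, the lists and the set of 13 rats were chosen with earlier results of these data known. The genes named were the 7, and those with the 2 highest and 2 lowest mean r to them. The gene table used here (GRCr8) matched 0 identifiers, so further astrocyte genes and markers of other cell types were not analysed here.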

Additional observations from a re-analysis of the deposited data

Results flagged for a closer look

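In a group of 7, 9 or 10 rats a level was singled out when its gap to the next rat was a large part of the whole range (Dixon's test at the 95% level), which chance does in about 1 in 20 groups. Of the 7 genes, 1 was singled out among the 9 vehicle rats and 0 among the 7 ENZ rats. The test was run on the 7 genes only, so the share singled out over all genes tested was not measured. Clu in vehicle rat G1_44, at 9835 normalized counts, lay far above the next rat at 5363, and it did so again with G1_80 included. With G1_80 included Slc1a3 was also singled out, at 1137 in that rat, which rests on 11 reads, against 4248 in the next lowest rat.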

How the results depend on the processing

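No astrocyte gene had an unadjusted p under 0.05 in any of the 210 combinations of gene and alternative run. The lowest was 0.0855, for Gfap without ENZ rat G2_125. Since 6 of the 7 fold changes were within 0.05 of 0, their signs turned easily. The sign turned over all 17 rats for Slc1a2 (0.11), Slc1a3 (0.23) and Clu (0.068). There DESeq2 and edgeR gave 0.041 and 0.024 for Slc1a2 and 0.079 and 0.057 for Slc1a3, but -0.12 and -0.14 for Clu, whose sign they left as it was. Over 13 rats it turned for Aqp4 (-0.085), S100b (-0.090) and Gja1 (-0.062), with Slc1a2 at -0.16 and Slc1a3 at -0.099, and without G1_44 for the same genes (-0.055, -0.058 and -0.032). Under quantile scaling it turned for Aqp4 (-0.010) and S100b (-0.012), with array weights for Slc1a2 (0.051) and Slc1a3 (0.0042), and for S100b under DESeq2 (-0.0092) and edgeR (-0.010) on 16 rats. Leaving out each rat in turn gave -0.030 to 0.17 for Gfap, -0.058 to 0.052 for Aqp4, -0.097 to 0.056 for Slc1a2, -0.064 to 0.049 for Slc1a3, -0.058 to 0.043 for S100b, -0.032 to 0.076 for Gja1 and -0.20 to -0.042 for Clu.

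Genes at an unadjusted p under 0.05, 324 in the 16 rats, were 38 over 17 rats (95 with DESeq2, which alone called genes after adjustment, 5), 625 with no filter on 20796 genes, 201 with a median of at least 50 on 9653 genes, and 287 to 458 when leaving out each rat.

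Pairs with r of at least 0.5 went from 10 to 21 over 17 rats and to 15 without G1_44, and the median r from 0.46 to 0.78 and to 0.79. The share of genes outside the set at that r, not matched for level, went from 5.81% to 9.06% over the 16 rats to 8.38% to 10.8% without G1_44. That share was not measured over 17 rats, so the 21 pairs have no background beside them. Leaving out each rat gave 10 to 15 pairs (14 without G2_62) and medians of 0.41 to 0.79. The median r of Gfap with the others, 0.34, was 0.72 over 17 rats and 0.25 (without G1_44) to 0.61 (without G2_62) leaving out each rat. That of Clu, -0.33, was 0.82 over 13 rats, 0.80 without G1_44, 0.64 over 17 rats, 0.53 as Spearman rho and -0.41 to 0.80 leaving out each rat. Beyond the rats left out or added, no cause was tested. Depth limits the reading of rat G1_80, with 7 to 25 reads per gene.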
